A study of Zea mays with 2 samples.

Results

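Late embryogenesis abundant (LEA) and desiccation proteins were examined in maize (Zea mays) endosperm, the storage tissue of the kernel, at 15 days after pollination. RNA of the wild type and of dek33, a defective kernel mutant, was sequenced. The labels call the source kernel and the tissue endosperm, and neither the dek33 allele nor the genetic background is stated in the labels. The files hold 1 value per gene and genotype, in FPKM (fragments scaled for transcript length and library size). The design text names triplicates without saying how they were merged, and the values of a genotype are called its library here. The differences therefore compare 2 such libraries, without a replicate check or a test. Members were the genes whose deposited description names late embryogenesis or embryonic abundant proteins, dehydrins, seed maturation proteins, proteins induced by or responsive to abscisic acid (ABA), or 1-Cys peroxiredoxin. The rule found 29 of 33283 genes, among them both genes it names, EMB564 (AC233879.1_FG002) and LEA D-34 (GRMZM2G025857).

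LEA proteins are small, mostly hydrophilic proteins that build up late in seed development, when the seed prepares to dry. They are sorted into groups by shared sequence motifs. Many of their genes are induced by ABA through response elements in their promoters, and in cereal grains they are known mainly from the embryo and the aleurone, the living outer cell layer of the endosperm, rather than from the starchy endosperm. Some descriptions are broader than the LEA families. The gene described as seed maturation protein PM36 (GRMZM2G080501), for example, has the RefSeq symbol TENA2, a name of thiamine metabolism.

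The deposited values were higher in the dek33 library for most genes. The median log2((dek33 + 1)/(wild type + 1)), used as the log2 ratio throughout, came to 0.44 across the 21688 genes that reached 1 FPKM in 1 or both libraries. Log2 ratios below are as deposited, and a centred log2 ratio has that median subtracted. Genes that reached 5 FPKM in 1 or both libraries were counted as lower or higher where they differed 2-fold or more on this scale. Markers of starchy endosperm, mainly zeins and starch enzymes, held 18.4% of all FPKM in dek33 and 32.7% in wild type. Of the dek33 share, 7.71% came from 3 alpha zeins that are listed at 0 in wild type, and the other markers held 10.7%. PyrR (GRMZM2G090068), the riboflavin synthesis gene known to be mutated in dek33, had 6.44 FPKM in dek33 and 4.55 in wild type, which does not check the labels because a mutant transcript can persist.

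Of the 29 members, 20 had at least 5 FPKM in 1 or both libraries. Of these, 8 were lower in the dek33 library, 0 were higher and 12 were neither. Among the 8, only EMB564 and the 1-Cys peroxiredoxin gene (GRMZM2G129761) reached 5 FPKM in both libraries. The rest passed the filter through wild type alone, so wild type was the higher library for them by construction. Over all 14348 genes at that level, 4.02% were lower and 14.8% higher. After centring, 9 members were lower and 0 higher, against 6.79% and 4.4% of all genes. The added member was the ABA-induced protein GRMZM2G164308, at a centred log2 ratio of -1.02. The median log2 ratio was -0.39 over the 25 members with at least 1 FPKM in 1 or both libraries, and the centred median was -0.83.

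On this scale the members fell into a set with large differences and a set with small ones. The 8 lower genes had log2 ratios from -6.01 to -1.90, and the 12 that were neither ranged from -0.58 to 0.90, with no member of 5 FPKM or more in between. The gap depends on the rule and the scale. Related genes outside the rule lay in it, such as GRMZM2G353266 at -1.65 and Rab28 (GRMZM2G472236) at -1.01. With 5 in place of 1 added to each FPKM, it narrowed to between -1.26 (GRMZM2G079440) and -0.46 (GRMZM2G164308). The 8 lower genes together had 3893 FPKM in wild type and 112 in dek33. The 12 others summed to nearly the same level in both libraries as deposited, 217 in wild type and 219.6 in dek33. After centring, their median log2 ratio was -0.42 and 10 of the 12 were below 0. These subsets were made from the ratios themselves, so the sums describe them and test nothing.

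**Figure D1:**
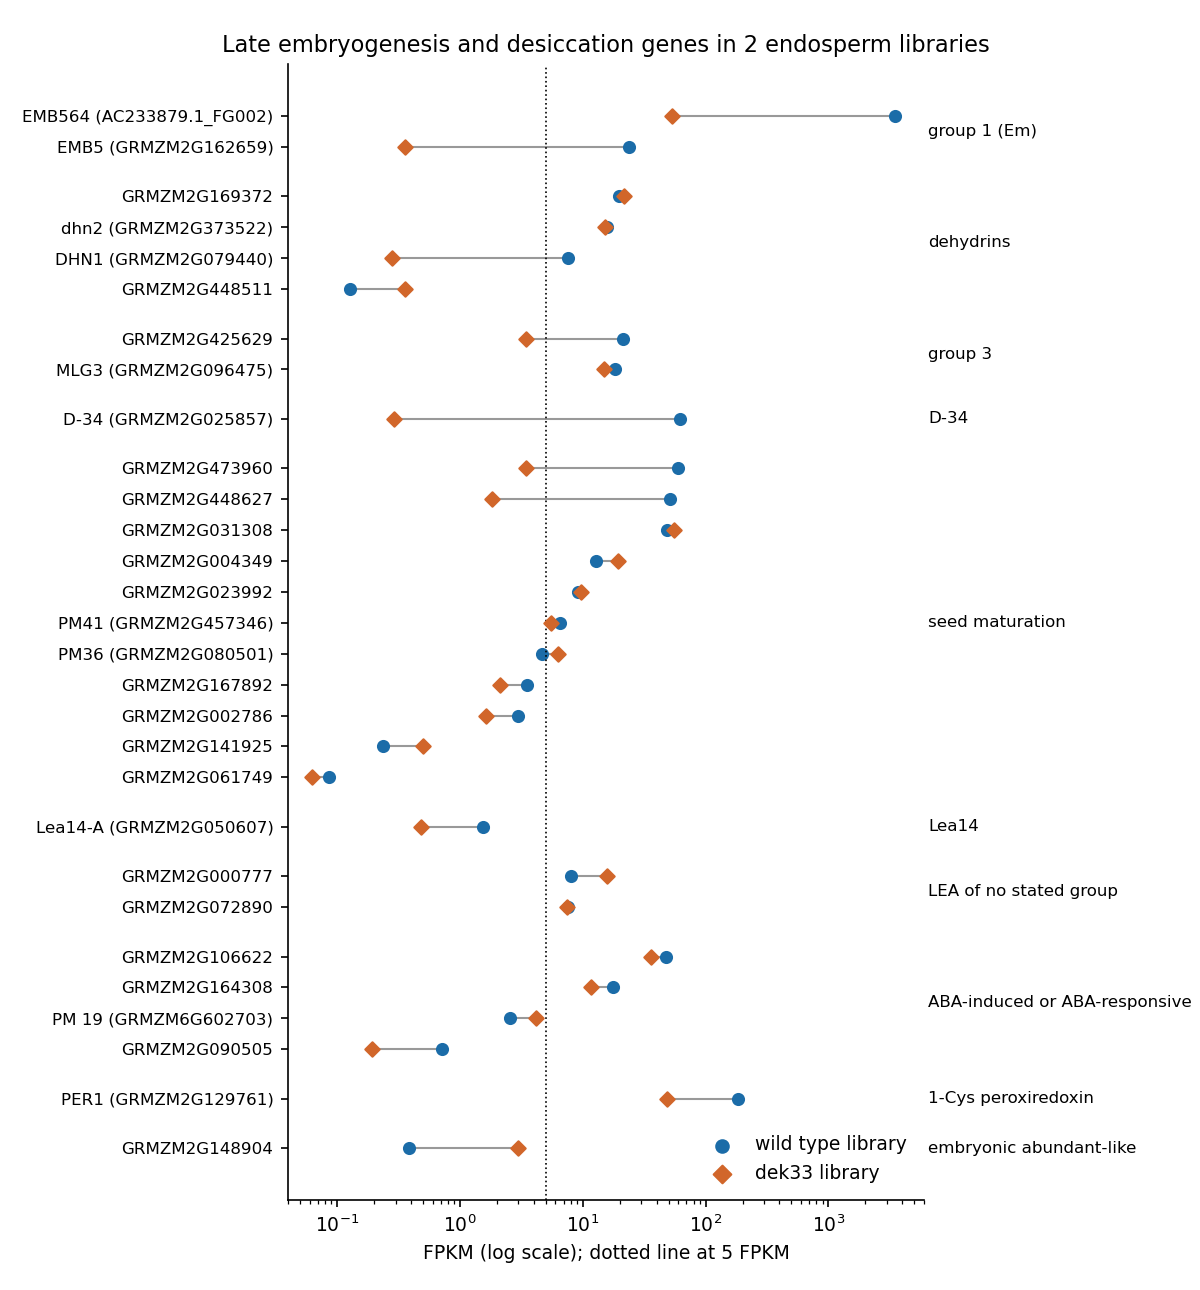
FPKM of each of the 29 members (log scale) in the wild type library (circles) and the dek33 library (diamonds), 1 value per library, grouped by class. The 8 lower genes show long lines to the left of their wild type point, while members such as dhn2 and GRMZM2G031308 have nearly overlapping points.

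Group 1 LEA proteins, also called Em proteins after a wheat protein of that name, had the highest level of any member in the wild type library and, at -5.10, the lowest median log2 ratio of any class with several genes. EMB564 (chromosome 6, 140536934 to 140537348, B73 RefGen_v3) had 3482 FPKM in wild type and 53.2 in dek33. It ranked 22 among all genes of the wild type library and 2121 in the dek33 library. Its log2 ratio was -6.01, and the deposited values differed 65.4-fold. EMB564 alone carried 84.5% of the summed FPKM of all members in wild type and 15.5% in dek33.

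The other Em gene, described as embryonic abundant protein 1 and named EMB5 in RefSeq (GRMZM2G162659, chromosome 6, 140501700 to 140502699), had 23.7 FPKM in wild type and 0.357 in dek33, a log2 ratio of -4.19 that ran from -5.70 with a pseudocount of 0.1 to -2.42 with one of 5. EMB5 and EMB564 are adjacent in the gene list of the files, 34234 bases apart, and both were lower in dek33. The labels do not say how fragments shared between related genes were assigned.

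The seed maturation class and LEA D-34 held 12 genes, of which 8 reached 5 FPKM and 3 were lower. D-34 was first described as a LEA protein of cotton embryos. The maize gene (chromosome 1, 275902181 to 275903395) had 62.2 FPKM in wild type and 0.291 in dek33, a log2 ratio of -5.61. The deposited values differed 213-fold, but the dek33 value is near the lower end of the scale, and the log2 ratio moved from -7.31 with a pseudocount of 0.1 to -3.67 with one of 5.

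Both other lower genes of this class lie on chromosome 10. GRMZM2G473960 (135531885 to 135532862) had 60.0 FPKM in wild type and 3.49 in dek33, a log2 ratio of -3.76. GRMZM2G448627 (70645289 to 70646218) had 51.2 and 1.83, a log2 ratio of -4.20. These 3 genes stood at about the level of GRMZM2G031308 in the wild type library, but that gene, also described as a seed maturation protein, had 48.6 FPKM in wild type and 55.7 in dek33. It thus became the most abundant member in the dek33 library, followed by EMB564 and then 1-Cys peroxiredoxin.

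The remaining seed maturation genes differed by less than 2-fold. GRMZM2G004349 had 12.9 FPKM in wild type and 19.5 in dek33, and GRMZM2G023992 had 9.25 and 9.68. PM41 (GRMZM2G457346) had 6.59 and 5.57, and PM36 had 4.67 and 6.24. The other 4 genes of the class were below 5 FPKM in both libraries, from 0.0870 to 3.50 in wild type. One of them, GRMZM2G141925, shares its locus with another gene.

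Dehydrins, the group 2 LEA proteins, bind membranes and other proteins when water is scarce. DHN1, also known as rab17 (GRMZM2G079440, chromosome 6, 137332062 to 137333893), is the ABA-responsive dehydrin of maize embryos. It had 7.64 FPKM in wild type and 0.283 in dek33, and was the only lower gene among the 3 dehydrins at 5 FPKM or more. Its log2 ratio was -2.75, or -4.34 with a pseudocount of 0.1 and -1.26 with one of 5.

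The other dehydrins had similar values in both libraries as deposited, and all 4 dehydrins had centred log2 ratios below 0. GRMZM2G169372, described as dehydrin 13, had 19.9 FPKM in wild type and 21.6 in dek33. The gene named dhn2 in RefSeq (GRMZM2G373522) had 15.7 and 15.2. The second gene described as dehydrin 13 (GRMZM2G448511) had 0.127 and 0.356, below the level at which differences were counted. FPKM of the 4 dehydrins summed to 43.3 in wild type and 37.5 in dek33.

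Group 3 LEA proteins carry repeats of a short motif and can fold into helices on drying. Only 2 members are described as group 3, and genes of this group with other descriptions are not counted here. These 2 had similar levels in wild type and different ones in dek33. GRMZM2G425629 (chromosome 3, 204761035 to 204762289) had 21.2 FPKM in wild type and 3.47 in dek33, a log2 ratio of -2.31. MLG3 (GRMZM2G096475, chromosome 6, 162162303 to 162163681) had 18.2 and 14.9, a log2 ratio of -0.27.

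1-Cys peroxiredoxin PER1 (GRMZM2G129761, chromosome 7, 168825649 to 168826990) is an antioxidant enzyme known from the embryo and aleurone of cereal grains. It was the second most abundant member in wild type, with 185 FPKM, and had 48.8 in dek33. Its log2 ratio of -1.90 was the smallest difference among the 8 lower genes. PER1 was also the only one of the 8 within a 4-fold difference.

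Proteins described as ABA-induced or ABA-responsive did not pass the 2-fold limit as deposited. GRMZM2G106622 had 47.7 FPKM in wild type and 36.2 in dek33, and GRMZM2G164308 had 17.8 and 11.6. The plasma membrane protein PM 19 (GRMZM6G602703) had 2.59 and 4.15. The fourth gene, GRMZM2G090505, was below 1 FPKM in both libraries.

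The last 4 members were LEA genes with no stated group, Lea14-A and an embryonic abundant-like protein. GRMZM2G000777 had 7.98 FPKM in wild type and 15.8 in dek33, the highest log2 ratio (0.90) among members at 5 FPKM or more. GRMZM2G072890 had 7.585 and 7.503. Lea14-A (GRMZM2G050607), named after a cotton LEA protein of a less hydrophilic family, had 1.56 and 0.484. The embryonic abundant-like gene GRMZM2G148904 had 0.385 and 2.97, a log2 ratio of 1.52, and was not counted because both values were below 5 FPKM.

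**Figure D2:**
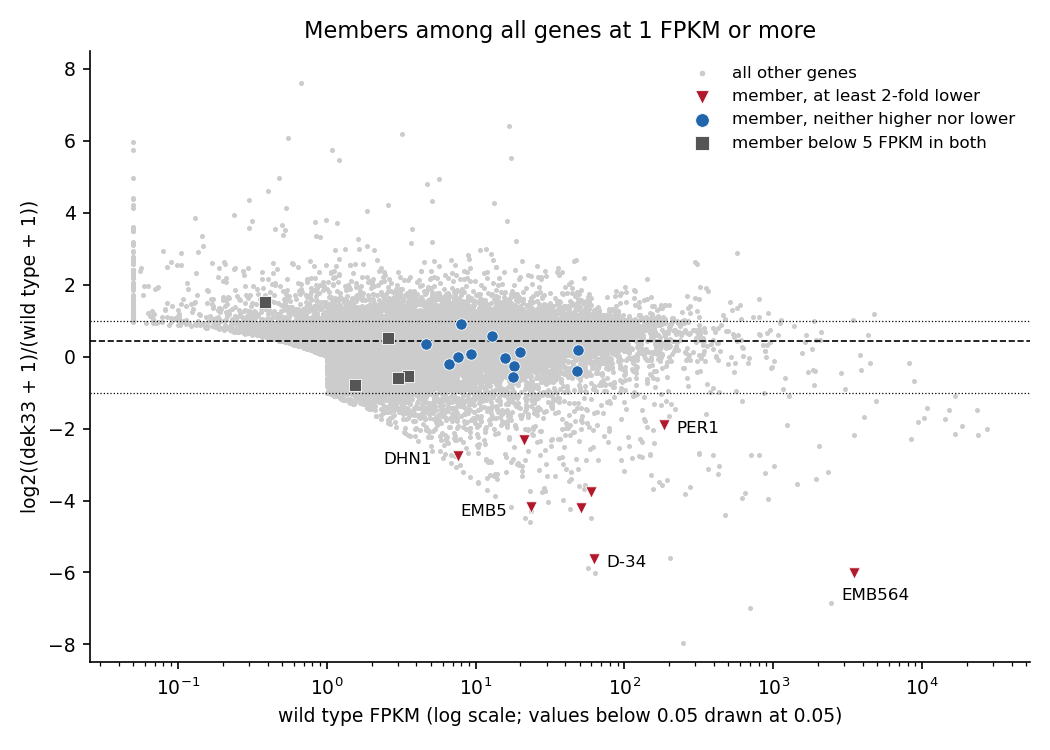
Log2 ratio of each gene with at least 1 FPKM in 1 or both libraries against its wild type FPKM (log scale), with members in colour; the dashed line is the median of all genes (0.44), the dotted lines mark 2-fold, and 5 genes beyond 8.5 on the log2 axis are not drawn. EMB564 lies far right and low, and the 12 members that were neither higher nor lower lie between the dotted lines.

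Without EMB564 the summed FPKM of the other 28 members was 640 in wild type and 291 in dek33, a ratio of 2.20. With it the sums were 4122 and 344, a ratio of 11.99. EMB564 thus set most of the summed level in wild type but not in dek33, and 7 of the other 19 members at 5 FPKM or more were lower.

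The 8 lower genes were spread over 5 chromosomes, with 3 on chromosome 6, 2 on chromosome 10 and 1 each on chromosomes 1, 3 and 7. Their printed loci ran from 415 to 1832 bases (median 1107.5), against 641 to 13185 (median 1741) for the 12 genes that were neither. The median was 1379 bases over all members and 3018 over all genes. The nearest listed gene on each side was examined to see whether a whole region differed. Apart from EMB5 and EMB564 themselves, 14 genes flanked the 8 lower genes, and 7 of these had at least 5 FPKM in 1 or both libraries. Of the 7, 1 was lower and 1 higher, against 4.02% and 14.8% of all genes at that level. Of the 10 such neighbours of the 12 genes that were neither, 0 were lower and 2 higher. Both neighbours of DHN1 (GRMZM2G079440) and both of GRMZM2G425629 were below 5 FPKM, so their regions could not be judged.

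The lower neighbour was GRMZM2G025793, 30308 bases from D-34 and without a description in the files, with 13.2 FPKM in wild type and 0.427 in dek33. The higher one was GRMZM2G039757, 38324 bases from PER1, with 15.0 and 64.4. The gene on the other side of D-34, GRMZM2G025906, was 1724 bases away and had 18.9 and 28.6. GRMZM2G162672, 1137 bases from EMB5, had 7.61 and 6.93.

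**Figure D3:**
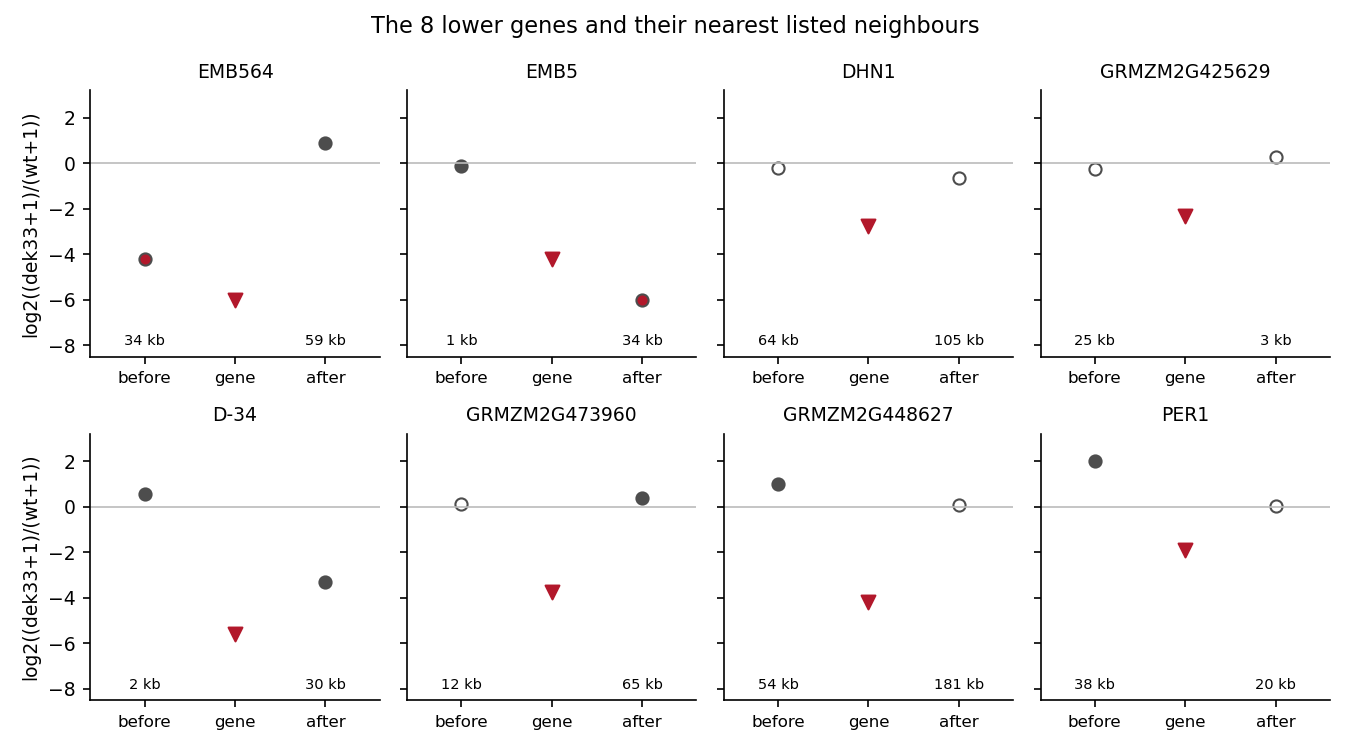
Log2 ratio of the 8 lower genes (red triangles) and of the nearest listed gene before and after each along the chromosome, with the gap printed in kb; filled circles are neighbours with at least 5 FPKM in 1 or both libraries, open circles those below, and red circles are members. The neighbour of D-34 on one side and the EMB5 and EMB564 pair are the only neighbours at least 2-fold lower.

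Genes of the ABA pathway were taken from word and symbol lists. Viviparous-1 (GRMZM2G133398), the transcription factor that activates LEA genes in response to ABA, had 12.7 FPKM in wild type and 5.86 in dek33. Its log2 ratio of -1.002 lay just past the 2-fold limit. The maturation transcription factor list held 5 genes, 3 at 5 FPKM or more, of which viviparous-1 was lower and none was higher. Its words also took in viviparous-10 and viviparous-14, which are names of ABA synthesis loci, and an ABI3-interacting protein (GRMZM2G070054) with 40.2 FPKM in wild type and 44.1 in dek33. Leafy cotyledon1 (GRMZM2G011789), a regulator of embryo development, had 0.295 in wild type and 2.12 in dek33.

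The 3 genes matched by the ABA synthesis list were below 5 FPKM in both libraries. Viviparous-10 (GRMZM2G067176), which that list missed, had 18.9 FPKM in wild type and 32.02 in dek33, and viviparous-14 (GRMZM2G417954) had 0.492 and 0.581. The 9-cis-epoxycarotenoid dioxygenase vp14 (GRMZM2G014392), an enzyme at the step that commits carotenoids to ABA, had 2.56 FPKM in wild type and 0.812 in dek33. Zeaxanthin epoxidase (GRMZM2G127139) had 0.170 and 0.217. The third gene of that list, GRMZM2G136910, is an ABA and stress ripening protein matched through the synonym aba1. No description matched the lists of ABA receptors or of ABA breakdown enzymes.

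SnRK2 kinases, which pass the ABA signal to transcription factors, were not lower as deposited. Of 9 genes, 7 reached 5 FPKM, and 0 were lower and 0 higher, with a median log2 ratio of 0.47 over all 9. The most abundant in wild type, GRMZM2G138861, had 46.9 FPKM there and 50.1 in dek33, and GRMZM2G066867 had 39.6 and 69.8. Among the 7, GRMZM2G180916 had the highest ratio, with 9.98 and 20.7, and GRMZM2G110908 the lowest, with 19.05 and 10.9. The latter was lower after centring. Protein phosphatase 2C ABI2 (GRMZM2G134628), which holds these kinases back, had 15.7 in wild type and 16.1 in dek33.

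Sugars of the raffinose family also accumulate in drying seeds. Of the 4 genes matched by the word list for their synthesis, 2 reached 5 FPKM and 1 was higher in dek33. That gene (GRMZM2G340656) is described as stachyose synthase but has the RefSeq synonym AGA1, so its place in synthesis is uncertain. It had 6.68 FPKM in wild type and 20.4 in dek33, while the second one (GRMZM2G047292) had 9.89 and 9.03. Of the 2 ABA and stress ripening genes, GRMZM2G052100 had 4.36 and 5.04 and GRMZM2G136910 had 4.38 and 2.53.

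Oil body coat proteins and embryo globulins, known from the same embryo and aleurone cells as LEA proteins, were set beside the members. Of 9 oil body genes, 7 were lower, 0 higher and 2 neither, with a median log2 ratio of -3.04. Of the 4 genes matched as embryo globulins, 2 were lower, globulin-2 and globulin-1, and 1 was higher. The higher one is a non-symbiotic hemoglobin that shares the synonym GLB1. Globulin-1 (GRMZM2G067919) had 394 FPKM in wild type and 58.8 in dek33. The third globulin, glb3 (GRMZM2G410134), is also described as alpha globulin, and nothing in its description places it in the embryo. It had 3025 and 1605 and was neither, and it ranked 25 in the wild type library and 45 in the dek33 library. After centring, glb3 and the caleosin GRMZM2G063220 were lower too, which made 3 of 4 globulin matches and 8 of 9 oil body genes lower. A share of the members, 12 of 20, stayed within 2-fold as deposited, as did 2 of the 9 oil body genes.

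Most embryo and scutellum markers moved with the lower members. Of the 7 genes of that list, 6 reached 5 FPKM, 5 were lower and 1, the same hemoglobin, was higher. The seventh, leafy cotyledon1, had the low values given above and a log2 ratio of 1.27. The summed level of the whole list was 4718 FPKM in wild type and 476 in dek33. Without the hemoglobin, left out after its values were seen, it was 4717 FPKM in wild type and 460 in dek33, a ratio of 10.3. The list shares 3 genes with the oil body list and 3 with the globulin list, so it largely repeats those comparisons. Leafy cotyledon1, its only gene outside both, had a ratio in the other direction. No gene of the list was at 0 in either library. Of 17 aleurone markers, 6 reached 5 FPKM and 0 were lower or higher, with sums of 231 in wild type and 251 in dek33. All 17 had centred log2 ratios below 0. One of the 6, GRMZM6G474234, is described only as uncharacterized and was matched through the synonym a2. The others, given as wild type and dek33 FPKM, were Nkd1 (GRMZM2G129261, 65.1 and 87.6), Nkd2 (GRMZM5G884137, 37.7 and 34.2) and Sal1 (GRMZM2G117935, 57.8 and 57.1). The last were dek1 (GRMZM2G321753, 22.6 and 27.4) and a gene described as CRINKLY4 (GRMZM2G092776, 8.33 and 10.5). The genes described as anthocyanin regulators or enzymes were below 5 FPKM in both libraries, so that part of the list says little about the aleurone. Other marker lists held lower genes as well. Basal transfer layer markers had 2 lower and 1 higher of 8, or 5 and 1 after centring, with sums of 488 in wild type and 269 in dek33. The 1 embryo surrounding region marker at 5 FPKM or more was lower. Starchy endosperm markers had 13 lower and 4 higher of 28, or 15 and 3 after centring. The part of embryo or other tissue in the differences of the LEA genes was not tested. In RNA of a whole tissue, fewer cells that express a gene and less RNA per cell cannot be told apart.

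**Figure D4:**
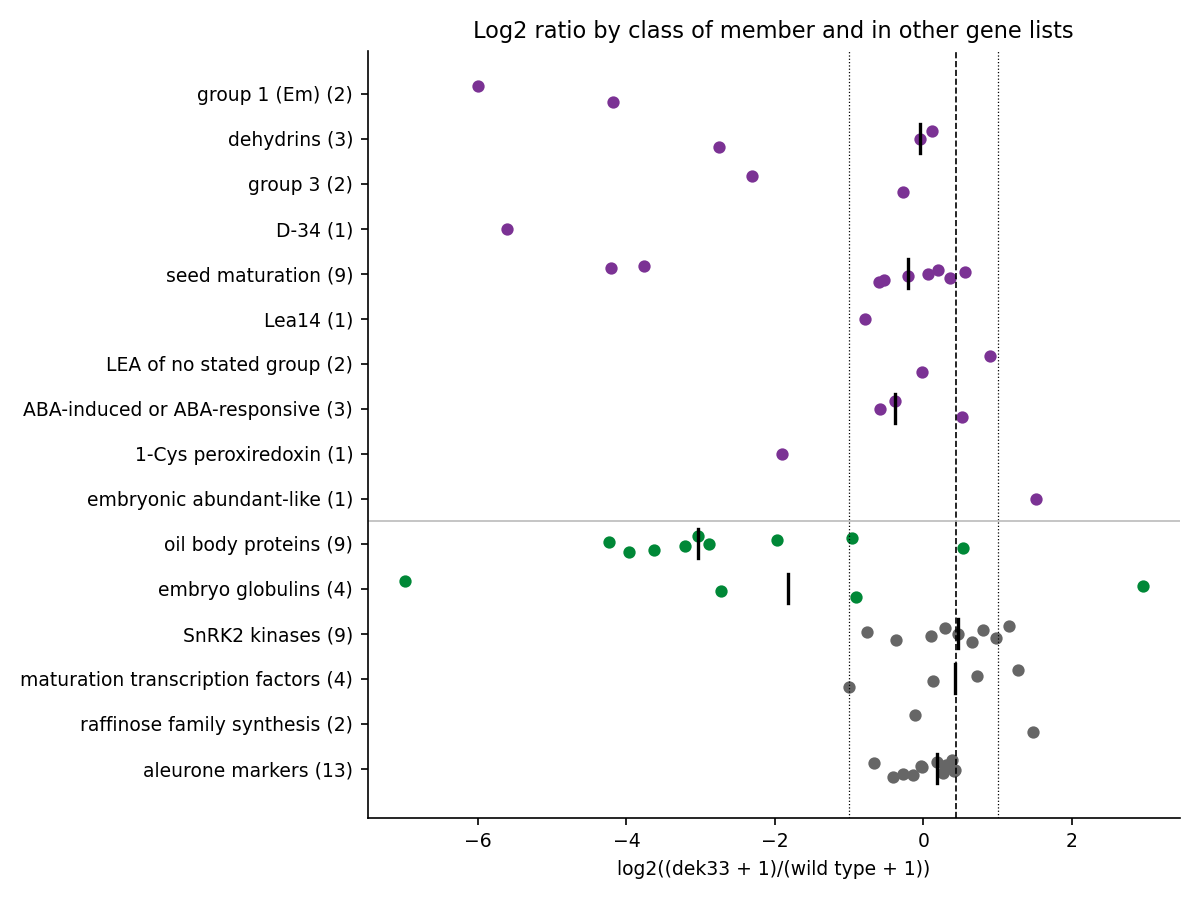
Log2 ratio of each member with at least 1 FPKM in 1 or both libraries, by class (purple), beside oil body and embryo globulin genes (green) and ABA pathway, raffinose synthesis and aleurone lists (grey); numbers in brackets count the points, black bars are medians of lists with at least 3 points, the dashed line is the median of all genes and the dotted lines mark 2-fold. Dehydrins, group 3 and seed maturation genes each contain both lower members and members near 0, and oil body genes lie mostly below -1.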

How the data were processed

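Endosperm RNA of 1 dek33 and 1 wild type sample was grouped by the genotype label. The authors deposited FPKM, with 1 value for each gene in each library. Bowtie 0.12.2 and the B73 RefGen_v3 build are named in the submitters' processing notes. The software behind FPKM, the annotation, any filter and how the triplicates named in the design text were merged are not given there or in the labels. Read depth is unknown, so no counting interval is given. A value of 1e-05 stands in the place of 0, and 0 members had it.

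Starts were raised by 1, since 21 genes start at 0 in the files. RefSeq names (NAM-5.0, names only) matched 18173 gene IDs (54.6%) and 28 of the 29 members. Classes follow description words. The ratio was log2((dek33 + 1)/(wild type + 1)). Counts used 2-fold and 5 FPKM, and medians 1 FPKM. With 1 sample per genotype there is no test. All members at 5 FPKM or more were named, with the most abundant, highest and lowest genes at that level in each pathway list. Other genes were named after their values were seen. Members and lists were chosen with earlier results of these data known. The sequence features planned for members were not analysed here. The procedure was tested on simulated data. Python 3.11.15, numpy 2.4.6, pandas 2.3.3 and matplotlib 3.10.9 were used.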

Additional observations from a re-analysis of the deposited data

How the results depend on the processing

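The count of 8 lower members ranged from 7 to 9 over the alternatives for pseudocount, filter, scaling, fold limit and membership, and 0 members were higher except 1 (GRMZM2G148904) with a minimum of 1 FPKM or no filter. The median of members was -3.04 with a minimum of 20 FPKM, where 10 genes remained. Some of these, such as D-34 and EMB5, reached 20 FPKM only in wild type, and GRMZM2G169372 did so only in dek33. The filter takes genes high in either library and so favours large differences in both directions. This median therefore reflects which members pass the filter. The group 1 median was -4.16 with a pseudocount of 5, which draws ratios toward 0 by construction. The ABA-induced class, 3 genes, gave -0.83 centred, -0.85 by trimmed mean (30% of M, 5% of A), -0.86 by upper quartile and -0.83 with equal totals without zeins. Adding DC-8, Rab28 and desiccation descriptions, chosen after seeing the data, gave 12 lower. All genes gave, as lower and higher counts, 577 and 2118 as deposited, 347 and 1038 with a pseudocount of 5, 247 and 1203 at 20 FPKM, 196 and 219 at 4-fold, 974 and 632 centred, 936 and 555 by trimmed mean, 955 and 542 by upper quartile and 919 and 575 without zeins, with 894 lower at 1 FPKM or without a filter. No paired analysis was possible because the files hold only 1 value per gene and genotype, and no replicate could be left out.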

Other observations

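Proteins related to desiccation whose descriptions fall outside the rule were chosen after their values were seen. All 3 genes described as embryonic protein DC-8, a LEA protein first named in carrot embryos, were lower in the dek33 library. GRMZM2G371375 had 40.2 FPKM in wild type and 3.69 in dek33, GRMZM2G353266 had 16.4 and 4.58, and GRMZM2G063287 had 7.23 and 0.786. The Rab28 gene (GRMZM2G472236), an ABA-responsive LEA gene of maize embryos, had 11.9 and 5.37, a log2 ratio of -1.01 at the 2-fold limit. An ABA response element binding factor (GRMZM2G168079) had 8.53 and 3.05.

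Other genes of this kind were not lower. The ABA-inducible glycine-rich RNA-binding protein RAB15 (GRMZM2G165901) had 923 FPKM in wild type and 2140 in dek33, a log2 ratio of 1.21 that came to 0.77 after centring. The desiccation-related protein PCC13-62 (GRMZM2G085260) had 201 and 276. Of 3 cold acclimation COR413 genes, 0 were lower or higher as deposited, and GRMZM2G102605, with 107 and 69.0, was lower after centring.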
